A study of Saccharomyces cerevisiae with 14 samples.

Results

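The ribosome assembly and rRNA processing factors described here were the yeast genes whose standard name is UTP, NOP or RRP followed by a digit. The annotation listed 53 such genes, and 52 of the 6040 ORFs of the array table carried one of these names, 18 UTP, 16 NOP and 18 RRP genes. The remaining gene, NOP10, was not analysed here. No measured value entered the choice. Of the 50 that could be tested, 12 passed in the same direction at all 3 time points, 3 higher and 9 lower, beside 14.2% of all genes (7.36% higher, 6.88% lower). The median of these factors lay slightly below that of all genes on 12 of the 14 slides, which are technical repeats within each time point. Of the 50, 15 passed as lower at 24 h and 15 at 72 h, beside 20.2% and 17.3% of all genes. Without replicate E at 72 h, 4 passed there as higher and 6 as lower. After removal of a trend along the sorted ORF names, the median of these factors at 72 h was -0.01. In the strain that made artemisinic acid, UTP20, UTP10 and RRP43 were higher and UTP9, UTP6, UTP18 and RRP1 lower at every time point. At 72 h the UTP6 and UTP18 calls were lost without certain single slides, and the UTP6 and RRP1 calls after removal of that trend. Subunits of the same complex were found on either side of 0.

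In yeast, RNA polymerase I transcribes a long precursor RNA in the nucleolus, from which the rRNAs of both ribosomal subunits are cut and modified. UTP proteins, named for the U3 particle, assemble with the U3 small nucleolar RNA on the growing precursor and form the small subunit processome, in which the precursor of the small subunit rRNA is folded and cleaved. NOP (nucleolar protein) genes encode core proteins of the small nucleolar ribonucleoproteins that guide rRNA modification, and many assembly factors of the large subunit. RRP (ribosomal RNA processing) genes encode further assembly factors and subunits of the RNA exosome, the complex that trims and degrades RNA from its 3' end. Transcripts of these factors are known to follow growth rate and nutrient signals in yeast and to fall under many stresses.

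EPY330, the artemisinic acid producer, carried pESC-Leu2d::ADS/AMO/CPR, and EPY338 carried pESC-Leu2d::ADS/AMO-KO/CPR, in which AMO (amorphadiene oxidase) is inactivated by a point mutation. ADS is amorphadiene synthase and CPR a cytochrome P450 reductase, so EPY338 lacks the oxidation of amorphadiene. Either plasmid was held in EPY300 with lys2Δ0 and ura3Δ0 repaired, a BY4742 derivative (MATα, his3Δ1, leu2Δ0) with galactose-driven tHMGR, upc2-1 and ERG20 and with ERG9 under the MET3 promoter. Both strains were induced in galactose medium (YPG), and equal amounts of RNA from 5 transformants per strain were pooled at 24, 48 and 72 h. cDNA of EPY330 (Alexa555) and EPY338 (Alexa647) was hybridized together to 14 slides, 4 at 24 h (replicates A to D) and 5 each at 48 and 72 h (replicates A to E). The pools were shared by every slide of a time point, so each SD below is technical and the tests compare pools, not clones or cultures. The dyes were not swapped, and dye effects of single genes cannot be told apart from the difference between strains. In the paper, fewer cells kept the plasmid with active AMO than the inactive one, in related strains grown without selection. How many cells of the pools held a plasmid was not examined here. Values are given as log2(EPY330/EPY338), where ratios above 0 are higher transcript levels in the producer.

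A slide's median over all ORFs lay between -0.02 and 0.01, and its SD between 0.47 and 0.88. Replicate B at 48 h stood apart from the other 48 h slides. Across all ORFs, which are not independent replicates, its Pearson's r was 0.36 to 0.59 with these and 0.82 with replicate C at 24 h. Where a call or a sign at 48 h of a gene named below rested on this slide, the value without it is given. The 72 h slides were also split. Replicate E at 72 h had an r of 0.44 to 0.64 with A to C, 0.78 with D and 0.71 with replicate C at 24 h. Replicate D at 72 h had an r of 0.52 to 0.66 with A to C and 0.71 with replicate C at 24 h.

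**Figure D1:**
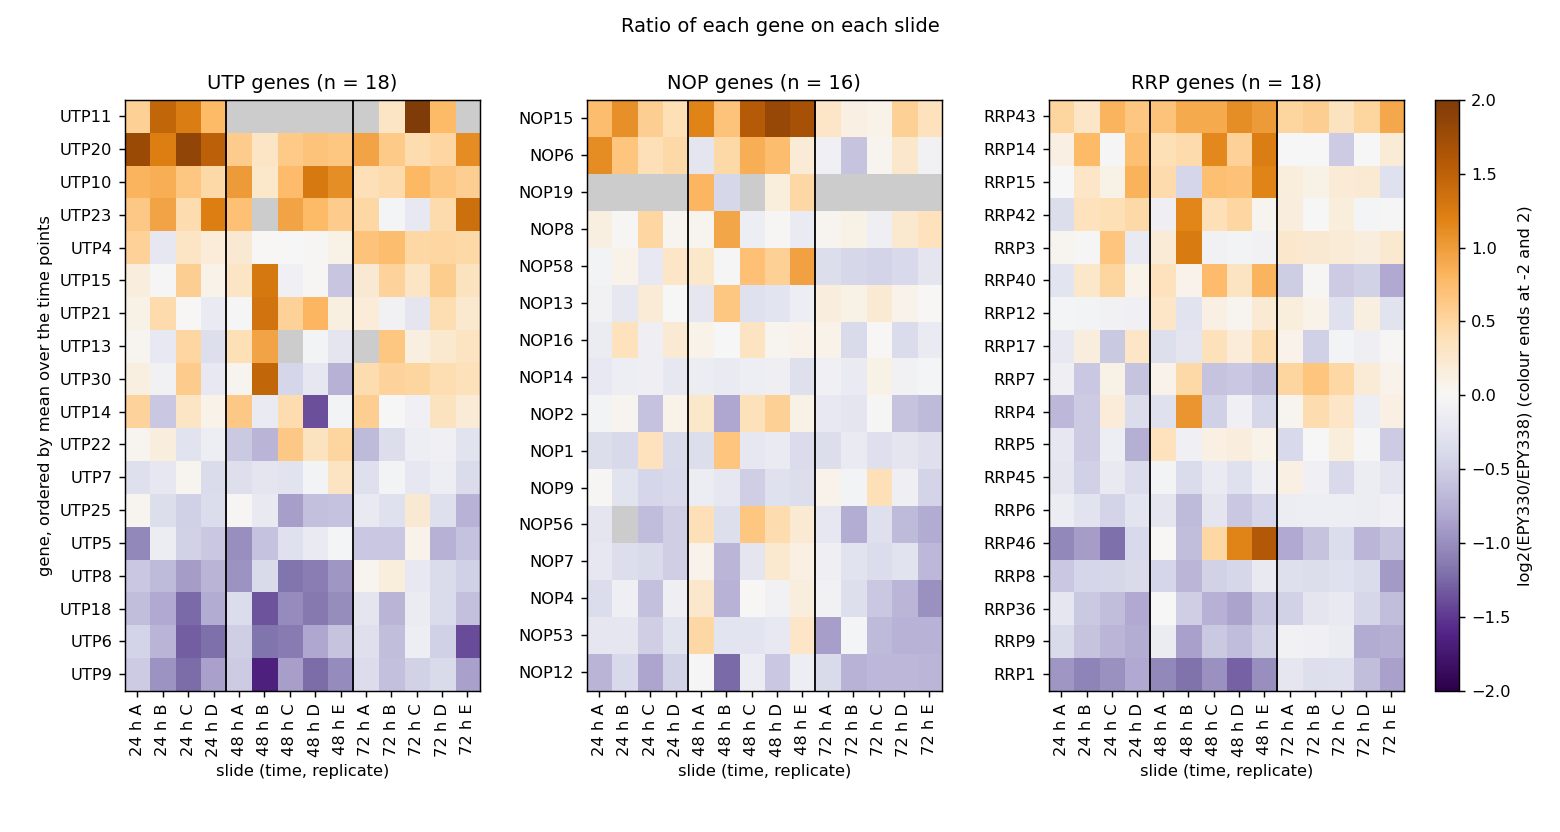
log2(EPY330/EPY338) of each UTP, NOP and RRP gene (rows, ordered by the mean over time points) on each of the 14 slides (columns, time and replicate). Orange is higher and purple lower in EPY330, grey is no value, and colours end at -2 and 2. Rows at the top and the bottom of each panel keep 1 colour over most slides, and many middle rows differ in colour at 48 h replicate B.

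Of the 52 genes, 47 were measured on all slides. UTP11, without a value at 48 h, and NOP19, with 4 values at 48 h alone, could not be tested over the time points, which left 50 genes. In limma (1 mean per time point over all slides, each tested against 0, adjusted over 5652 genes), 21 of the 50 passed an adjusted p of 0.05 at 24 h, 6 higher and 15 lower in EPY330. Of all genes tested, 41.9% passed at 24 h, 21.7% higher and 20.2% lower. At 48 h 25 of the 50 passed, 12 higher and 13 lower, beside 50.8% of all genes, 25.5% higher and 25.3% lower. At 72 h 19 passed, 4 higher and 15 lower, beside 33.8%, 16.5% higher and 17.3% lower. The share that passed in either direction was therefore near that of all genes at each time point, while lower calls outnumbered higher calls among these factors at 24 and 72 h. Without replicate E the 72 h count was 10, 4 higher and 6 lower, and after a trend across the sorted ORF names was removed it was 15, 5 higher and 10 lower. Here and below, shares of all genes belong to the main setting (all slides, no trend removed), and none is given for an alternative. At 1 or more time points 32 of 50 passed, beside 69.6% of all genes.

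The centre of the name groups is given beside that of all genes. Over the 51 genes with values, the median at 24, 48 and 72 h was -0.13, 0.04 and -0.11, and that of all genes was -0.01, -0.02 and -0.02. The median of these factors lay below that of all genes on 4 of 4 slides at 24 h, 3 of 5 at 48 h and 5 of 5 at 72 h. With the trend across the ORF names removed, their median at 24, 48 and 72 h was -0.16, -0.06 and -0.01. The SD over the genes was 0.52, 0.52 and 0.44, compared with 0.57, 0.61 and 0.44 over all genes. The UTP median was 0.05, 0.03 and 0.15 at 24, 48 and 72 h. The NOP median was -0.15, 0.05 and -0.27. The RRP median was -0.28, 0.08 and -0.11. At 24 h the UTP median lay above the RRP median on 4 of 4 slides, and at 72 h it lay above the NOP median on 5 of 5 slides. No other pair of groups kept its order on every slide of a time point. The UTP median fell below 0 at 48 h (down to -0.08) without replicate B, C or E. The order of UTP and NOP at 72 h leaned on incompletely measured genes. When only genes measured on all slides were used, which leaves out 3 UTP genes, the 72 h medians were -0.17 for UTP and -0.22 for NOP. With the trend across the ORF names removed they were 0.05 and -0.11. Leaving out any 1 slide at 72 h left the UTP median between 0.10 and 0.23.

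**Figure D2:**
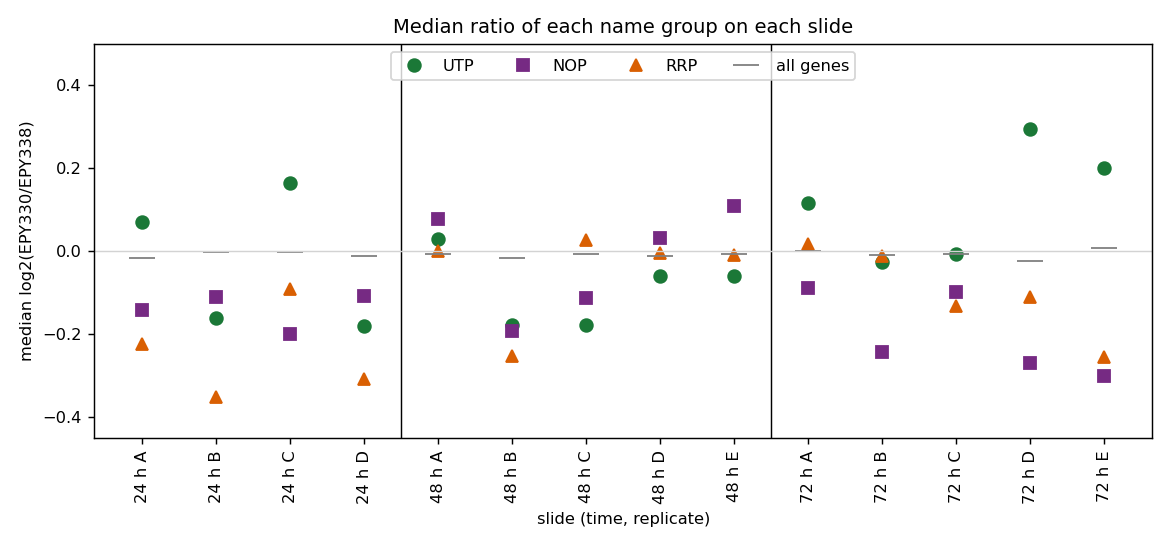
Median log2(EPY330/EPY338) of the UTP, NOP and RRP genes and of all genes on each of the 14 slides (time and replicate). The medians of the name groups lie between -0.35 and 0.29, the UTP median is above the NOP median on 5 of 5 slides at 72 h, and the order changes between slides at 48 h.

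The counts by name group stand beside 21.7% higher and 20.2% lower among all genes at 24 h, 25.5% and 25.3% at 48 h, and 16.5% and 17.3% at 72 h. At 24 h 8 of 17 UTP genes passed (3 higher, 5 lower), 4 of 15 NOP genes (2 higher, 2 lower) and 9 of 18 RRP genes (1 higher, 8 lower). At 48 h it was 10 UTP genes (4 higher, 6 lower), 5 NOP genes (3 higher, 2 lower) and 10 RRP genes (5 higher, 5 lower). At 72 h it was 7 UTP genes (3 higher, 4 lower), 5 NOP genes (0 higher, 5 lower) and 7 RRP genes (1 higher, 6 lower). At an unadjusted p under 0.05, a looser cut of the same limma test, the NOP count at 72 h was 0 higher and 6 lower. The share of all genes at that cut is not given here. Differences between the name groups were not tested.

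Passing in the same direction at 24, 48 and 72 h was found for 12 of the 50 genes, 3 higher (UTP20, UTP10, RRP43) and 9 lower (UTP9, UTP6, UTP18, UTP5, RRP1, RRP9, RRP36, RRP8, NOP12). Among all genes 14.2% did so, 7.36% higher and 6.88% lower. The count was 7, with 3 higher and 4 lower, without replicate E at 72 h, and 8, with 4 higher and 4 lower, after removal of the trend across the ORF names. A single sign on all 14 slides was held by 13 of 47 genes, 4 higher and 9 lower, beside 17.5% of all fully measured genes (8.28% higher, 9.19% lower).

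**Figure D3:**
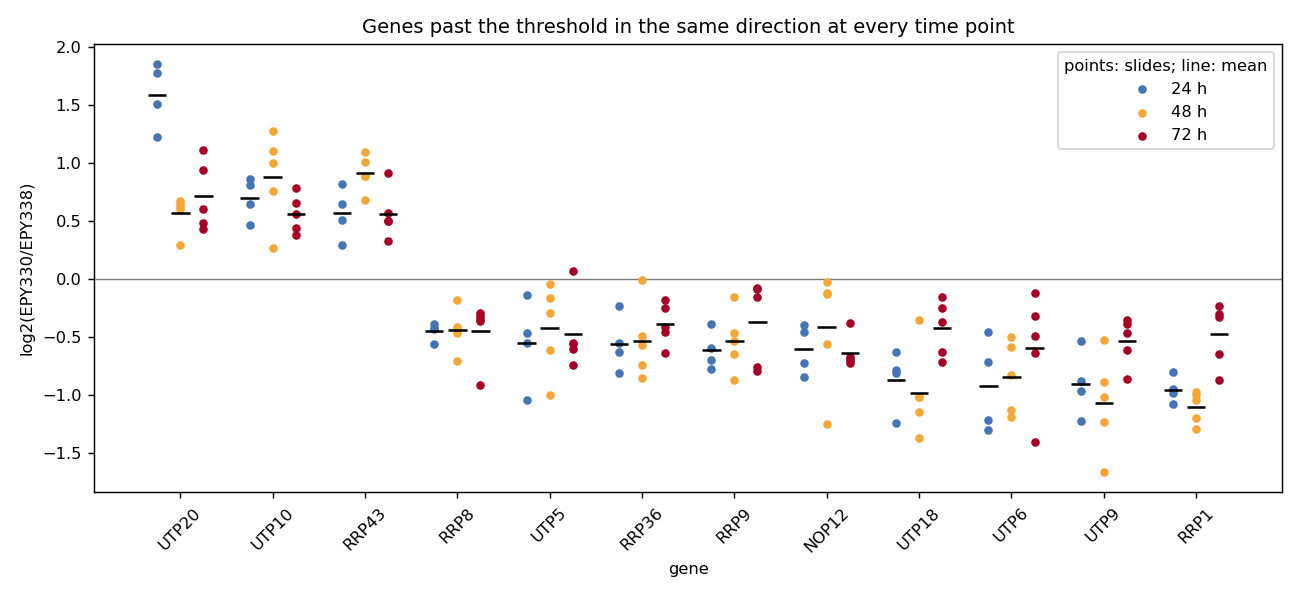
log2(EPY330/EPY338) on each slide (points, coloured by time point) and the mean of the slides (black lines) for the 12 genes that passed the threshold in 1 direction at 24, 48 and 72 h. UTP20 lies highest at 24 h, between 1.23 and 1.85, with no overlap with its 48 and 72 h slides, and UTP5 crosses 0 on 1 slide at 72 h.

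UTP20 (YBL004W), a very large repeat protein of the small subunit processome, was the most strongly raised of the fully measured genes. At 24 h its ratio was 1.78, 1.23, 1.85 and 1.52 on replicates A to D, a 3.02-fold higher level (mean 1.59 ± 0.28, SD, n = 4, limma adjusted p = 4.33e-07). At 48 h the slides gave 0.60, 0.30, 0.62, 0.68 and 0.65, with a mean of 0.57 ± 0.15 (SD, n = 5, adjusted p = 0.00102). At 72 h they gave 0.95, 0.61, 0.43, 0.49 and 1.11, with a mean of 0.72 ± 0.30 (SD, n = 5, adjusted p = 0.000497). Every 24 h slide was above every later slide, and the later time points overlapped. The ratio dropped by 1.02 from 24 to 48 h (adjusted p = 0.00767) and by 0.87 from 24 to 72 h (adjusted p = 0.00949). These 5 limma calls held without any 1 slide and after the trend along the ORF order was removed.

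Within UtpA, the subcomplex that binds the 5' end of the growing precursor first, subunits moved in opposite directions. UTP10 (YJL109C) was 0.81, 0.87, 0.65 and 0.47 at 24 h (mean 0.70 ± 0.18, SD, n = 4, limma adjusted p = 0.00106). It was 1.0, 0.27, 0.76, 1.28 and 1.10 at 48 h and 0.38, 0.44, 0.79, 0.66 and 0.57 at 72 h, and all 14 slides were above 0. UTP9 (YHR196W), another UtpA subunit, was -0.53, -0.96, -1.22 and -0.87 at 24 h (mean -0.90 ± 0.29, SD, n = 4, adjusted p = 0.00035). All 14 slides of UTP9 were below 0, and no slide of UTP9 overlapped with one of UTP10. Its mean was -1.06 ± 0.42 at 48 h and -0.53 ± 0.21 at 72 h (SD, n = 5 each, adjusted p = 1.48e-05 and 0.00941).

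UTP8 (YGR128C), a UtpA subunit that also serves in tRNA export from the nucleus, was low early and then near 0. Its slides gave -0.55, -0.66, -0.90 and -0.71 at 24 h and -0.96, -0.38, -1.18, -1.11 and -0.94 at 48 h. At 72 h they gave 0.05, 0.17, -0.20, -0.37 and -0.47 (mean -0.17 ± 0.27, SD, n = 5, limma adjusted p = 0.323). The rise by 0.75 from 48 to 72 h passed (SE 0.18, adjusted p = 0.00734), although 72 h replicate E lay below 48 h replicate B. UTP4 (YDR324C), a WD-repeat subunit, passed at 72 h alone. At 24 h it was 0.53, -0.22, 0.30 and 0.18, with a mean of 0.20 (limma adjusted p = 0.204). It was 0.22, 0.01, -0.01, 0.02 and 0.10 at 48 h. At 72 h it was 0.69, 0.73, 0.48, 0.49 and 0.46, with no overlap with the 48 h slides. The 24 h slides overlapped with those of 72 h, and the change of UTP4 between these times, 0.37, did not pass (adjusted p = 0.129). Its 72 h mean of 0.57 ± 0.13 (SD, n = 5) passed (adjusted p = 0.00113). The change of UTP4 from 48 to 72 h, 0.50 (adjusted p = 0.0237), was lost without replicate C or D at 48 h and likewise without A or B at 72 h, with an adjusted p of up to 0.0626.

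The other UtpA subunits were less clear. UTP5 means were -0.54, -0.42 and -0.47 at 24, 48 and 72 h, and each passed in limma (adjusted p = 0.0169, 0.0308 and 0.0256). None of these calls was stable. They were lost without replicate A or D at 24 h (adjusted p up to 0.125), A or B at 48 h (up to 0.157), and A, B, D or E at 72 h (up to 0.0923), and after the trend along the ORF order was removed the values were -0.23, -0.17 and -0.14. Without replicate B at 48 h the 48 h mean of UTP5 was -0.37 (adjusted p 0.0752). UTP15, a WD-repeat subunit, had means of 0.20, 0.20 and 0.40, and none passed. Without replicate B at 48 h its 48 h mean was -0.08 and its 72 h mean passed (adjusted p 0.0161). The 6 UtpA genes with a UTP name spanned 1.60 at 24 h, from UTP9 to UTP10, 1.95 at 48 h and 1.10 at 72 h.

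In UtpB, which joins the processome together with the U3 particle, UTP6 and UTP18 were low and UTP13 and UTP21 were not. UTP6 (YDR449C) was -0.45, -0.71, -1.30 and -1.21 at 24 h and -0.50, -1.19, -1.13, -0.83 and -0.58 at 48 h (limma adjusted p = 0.00103 and 0.000508). At 72 h UTP6 was -0.31, -0.63, -0.12, -0.48 and -1.40, and that call (mean -0.59, adjusted p = 0.0135) was lost without the lowest slide, replicate E, where the mean was -0.39 and the adjusted p 0.086, and after removal of the ORF trend (-0.28, adjusted p 0.132). UTP18 (YJL069C), which is known to recruit the exosome helicase Mtr4, was -0.63, -0.81, -1.24 and -0.78 at 24 h and -0.35, -1.37, -1.02, -1.15 and -1.01 at 48 h. These values lay below 0 on every slide, and UTP6 and UTP18 overlapped with each other at every time point.

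At 72 h UTP18 was -0.24, -0.71, -0.15, -0.36 and -0.62 (limma adjusted p = 0.028), closer to 0 than at 48 h by 0.56 (adjusted p = 0.0388). The 72 h call was lost without replicate B, D or E at 72 h, with an adjusted p of up to 0.11. The change from 48 h was lost without any 1 of 7 slides (replicates B to E at 48 h and A, C and D at 72 h), with an adjusted p of up to 0.0956, and after removal of the ORF trend (0.27, adjusted p 0.189). UTP21 passed at 48 h alone (0.56 ± 0.54, SD, n = 5, adjusted p = 0.00805), with replicate B at 1.33, and its mean without B was 0.37 (adjusted p 0.0445). UTP13 means were 0.01, 0.26 and 0.33 on 4 slides at each time point, and none passed.

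**Figure D4:**
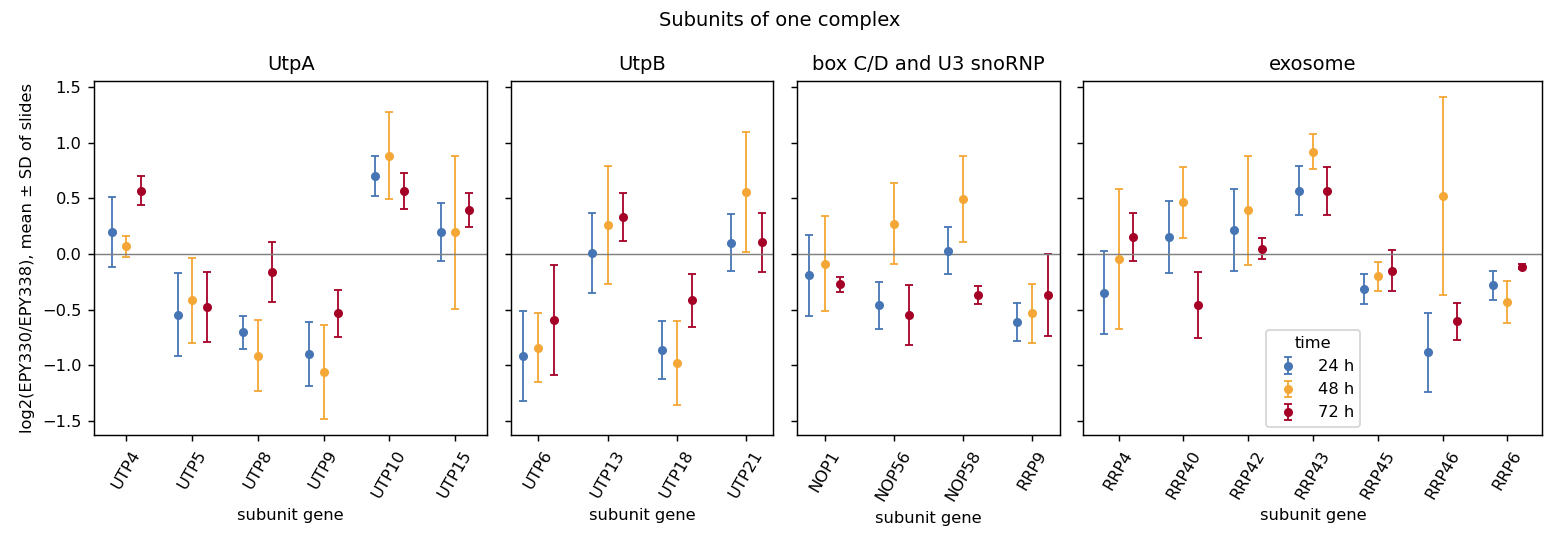
Mean log2(EPY330/EPY338) ± SD of the slides (4 at 24 h, 5 at 48 and 72 h, fewer where a slide had no value) for subunit genes of UtpA, UtpB, the box C/D and U3 particles and the exosome. In UtpA UTP10 and UTP9 lie on opposite sides of 0 at every time point, at 0.70 and -0.90 at 24 h.

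UtpC was represented by UTP22 and RRP7, and neither passed at any time point. RRP7 (YCL031C) had means of -0.28, -0.25 and 0.38 over the time points, and its change from 48 to 72 h was 0.63 (limma adjusted p = 0.0425). That call was lost without any 1 of 7 slides (adjusted p up to 0.108), namely replicate A at 24 h, C to E at 48 h and A to C at 72 h, and after removal of the ORF trend it was 0.29 (adjusted p 0.121). With the trend removed RRP7 passed as lower at 24 h (-0.41, adjusted p 0.00627) and 48 h (-0.30, adjusted p 0.0173), and its 72 h mean was -0.01. Without replicate B at 48 h RRP7 passed at 48 h (-0.42, adjusted p 0.0236) and at 72 h (adjusted p 0.0276). RRP36, a processome factor needed for the early cleavages, was lower at 24, 48 and 72 h, with means of -0.55, -0.53 and -0.38 (adjusted p = 0.00446, 0.00198 and 0.0269). At 72 h the RRP36 call needed replicates A, D and E, and leaving out any 1 of them gave an adjusted p of up to 0.103. With the ORF trend removed it was -0.18 (adjusted p 0.226). UTP23 (YOR004W), known to act in the release of the snR30 guide RNA, was named after its values were seen. UTP23 was 0.63, 0.95, 0.42 and 1.22 at 24 h (adjusted p = 0.0038) and 0.71, 0.94, 0.78 and 0.61 on the 4 measured slides at 48 h (adjusted p = 0.00438). At 72 h its slides ran from -0.20 to 1.37 and the mean of 0.41 did not pass (adjusted p = 0.0806).

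The core proteins of the box C/D particles, which guide methylation of the rRNA, were lower at 72 h than at 48 h where they passed. NOP56 (YLR197W) was 0.38, -0.31, 0.65, 0.43 and 0.21 at 48 h and -0.21, -0.77, -0.31, -0.66 and -0.80 at 72 h. Its 48 h mean was 0.27 (limma adjusted p = 0.111), or 0.42 without replicate B (adjusted p 0.0117), and its 72 h mean was -0.55 (adjusted p = 0.00699). The 2 time points overlapped only through replicate B at 48 h, and the change of -0.82 passed (SE 0.20, adjusted p = 0.00737). With the ORF trend removed that change was -0.45 and did not pass (adjusted p 0.0507). At 24 h the mean of NOP56 on 3 slides was -0.46 (adjusted p = 0.0471), a call that was lost without any 1 of 10 slides.

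NOP58 (YOR310C), the partner of NOP56 in these particles, was 0.27, -0.03, 0.71, 0.56 and 0.96 at 48 h and -0.34, -0.42, -0.45, -0.39 and -0.24 at 72 h, with no overlap. The change of -0.86 passed (SE 0.18, limma adjusted p = 0.00347), as did the 48 h mean of 0.49 (adjusted p = 0.00362). The 72 h mean of -0.37 passed (adjusted p = 0.0349) but was lost without any 1 of the 5 slides at 72 h, with an adjusted p of up to 0.0876. NOP1, the fibrillarin methyltransferase of the same particle, was -0.19, -0.09 and -0.27 and did not pass, although at 72 h it passed with the ORF trend removed (-0.38, adjusted p 0.00337) and when 72 h was fitted alone (adjusted p 0.0332). RRP9, the protein particular to the U3 particle, was low throughout, at -0.61, -0.53 and -0.37 (adjusted p = 0.00343, 0.00295 and 0.0407). The 72 h call of RRP9 was lost without replicate B at 24 h or D or E at 72 h, with an adjusted p of up to 0.178.

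The 7 exosome genes with an RRP name, a part of the complex, spanned 1.45, 1.35 and 1.17 at 24, 48 and 72 h. RRP43 (YCR035C), a ring subunit, was 0.51, 0.29, 0.82 and 0.65 at 24 h (limma adjusted p = 0.00164). It was 0.68, 0.90, 0.89, 1.10 and 1.02 at 48 h (adjusted p = 5.83e-06) and 0.51, 0.58, 0.33, 0.50 and 0.92 at 72 h (adjusted p = 0.00133). All 14 slides were above 0. RRP46 (YGR095C), another ring subunit, was -1.04, -0.89, -1.21 and -0.39 at 24 h (mean -0.88 ± 0.35, SD, n = 4, adjusted p = 0.00843), below every RRP43 slide.

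RRP46 then varied more between the 48 h slides than any other exosome gene with an RRP name, with 0.01, -0.63, 0.48, 1.18 and 1.58. Its 48 h mean of 0.52 ± 0.89 (SD, n = 5) did not pass in limma (adjusted p = 0.0576), but it did without replicate B (0.81, adjusted p 0.0023) and with the ORF trend removed (0.74, adjusted p 0.00102). At 72 h RRP46 was -0.80, -0.58, -0.36, -0.70 and -0.58, a mean of -0.60 whose call (adjusted p = 0.0436) was lost without any 1 of 8 slides (adjusted p up to 0.121) and with the trend removed (-0.31, adjusted p 0.141). The change of -1.13 from 48 to 72 h passed (SE 0.31, adjusted p = 0.0141). The opposite change from 24 to 48 h, 1.41, did not (SE 0.33, adjusted p = 0.052).

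RRP40, a cap subunit with RNA-binding domains, was 0.35, 0.07, 0.75, 0.32 and 0.82 at 48 h and -0.52, 0.02, -0.53, -0.46 and -0.80 at 72 h. The groups did not overlap, and the change of -0.92 passed (SE 0.20, limma adjusted p = 0.0043). The single time points of RRP40 passed at 48 h (0.46, adjusted p = 0.0106) and 72 h (-0.46, adjusted p = 0.0201), and these calls were lost without replicate C or E at 48 h (up to 0.0544) and A, C or E at 72 h (up to 0.0906). RRP6, the nuclear exonuclease bound to the exosome, passed at 48 h with -0.43 ± 0.19 (SD, n = 5, adjusted p = 0.00162). Its 24 h mean of -0.28 (adjusted p = 0.0493) was lost without any 1 of 12 slides and with the ORF trend removed (-0.22, adjusted p 0.081), and its 72 h mean of -0.11 did not pass.

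RRP45, RRP42 and RRP4 made up the rest of the exosome genes with an RRP name. RRP45 was -0.31 at 24 h (limma adjusted p = 0.0358), lost without replicate A, B or D (up to 0.158) and with the ORF trend removed (adjusted p 0.0699), where it instead passed at 48 h (-0.33, adjusted p 0.0175). RRP42 was 0.39 at 48 h (adjusted p = 0.0405), lost without replicate B, C or D (up to 0.217), with replicate B at 1.16 and a mean of 0.20 without it. With the ORF trend removed RRP42 also passed at 24 h (0.40, adjusted p 0.0219). RRP4, another cap subunit, was -0.35, -0.04 and 0.15 and did not pass. Without replicate B at 48 h its 48 h mean was -0.32 (adjusted p 0.0582) and its 24 h mean passed (adjusted p 0.0428). Over these 7 exosome genes 1 was called higher and 3 lower at 24 h, 3 higher and 1 lower at 48 h, and 1 higher and 2 lower at 72 h. Of all genes 41.9%, 50.8% and 33.8% passed at these times in either direction.

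RRP1 (YDR087C), an assembly factor of the large subunit, had the lowest mean over the time points of the RRP genes. It is needed for processing of the large subunit precursor. RRP1 was -0.95, -1.07, -0.98 and -0.80 at 24 h (mean -0.95 ± 0.11, SD, n = 4, limma adjusted p = 2.44e-05). It was -1.04, -1.19, -0.97, -1.29 and -1.0 at 48 h, a 2.14-fold lower level in EPY330 (mean -1.10 ± 0.14, SD, n = 5, adjusted p = 9.5e-07). At 72 h it was -0.23, -0.33, -0.30, -0.64 and -0.87 (mean -0.47 ± 0.27, SD, n = 5, adjusted p = 0.0041). Every 48 h slide lay below every 72 h slide, and the rise by 0.62 passed (SE 0.16, adjusted p = 0.00876). RRP1 calls in limma held without any 1 slide, but the 72 h mean was -0.12 (adjusted p 0.403) after the trend along the ORF order was removed.

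NOP15 (YNL110C), an RNA-binding factor of the second internal spacer, was highest at 48 h. Its slides gave 0.75, 1.08, 0.57 and 0.40 at 24 h (mean 0.70 ± 0.29, SD, n = 4, limma adjusted p = 0.00255) and 1.18, 0.68, 1.56, 1.80 and 1.68 at 48 h (mean 1.38 ± 0.45, SD, n = 5, adjusted p = 1.56e-06). That 48 h mean is a 2.60-fold higher level in EPY330. At 72 h NOP15 was 0.28, 0.11, 0.09, 0.56 and 0.35, below every 48 h slide, and its mean of 0.28 did not pass (adjusted p = 0.147). The drop by 1.10 from 48 to 72 h passed (SE 0.21, adjusted p = 0.00215). It was the largest drop among the NOP genes, and the difference of 0.68 between 24 and 48 h did not pass (adjusted p = 0.278).

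NOP12 and NOP53 were the lowest of the NOP genes over the time points. NOP12 (YOL041C), an RNA-binding protein needed for processing of the large subunit rRNA, was -0.72, -0.39, -0.84 and -0.46 at 24 h (limma adjusted p = 0.00756) and -0.38, -0.72, -0.67, -0.69 and -0.70 at 72 h (adjusted p = 0.00419). At 48 h it was -0.02, -1.25, -0.13, -0.56 and -0.12, and that call (-0.41, adjusted p = 0.0265) was lost without replicate B or D, with a mean of -0.21 without B. NOP53 (YPL146C), which brings Mtr4 and the exosome to the large subunit precursor, was 0.47, -0.26, -0.25, -0.20 and 0.29 at 48 h and -0.88, -0.04, -0.67, -0.73 and -0.72 at 72 h. The NOP53 mean at 72 h, -0.61, passed (adjusted p = 0.00312), and 1 slide at 72 h, replicate B, overlapped with the 48 h slides. The change of NOP53, -0.62 (adjusted p = 0.0241), was lost without replicate E at 48 h or A or C at 72 h, with an adjusted p of up to 0.0697.

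The remaining named NOP genes passed less firmly. NOP4, an RNA-binding large subunit factor, passed at 72 h (-0.52, limma adjusted p = 0.013) but not without replicate E (-0.41, adjusted p 0.0717). Its 48 h mean was -0.08, or 0.09 without replicate B, and passed in neither case. NOP6 (YDL213C), a small subunit factor, was 1.12, 0.67, 0.39 and 0.46 at 24 h and -0.09, -0.59, 0.05, 0.25 and -0.06 at 72 h, with no overlap. The 24 h mean of 0.66 (adjusted p = 0.00626) was lost without replicate A (0.50, adjusted p 0.0546), the 48 h mean of 0.41 (adjusted p = 0.0384) without replicate B, C or D (up to 0.174), and the change to 72 h of -0.75 (adjusted p = 0.0433) without any 1 of 6 slides, replicates A, B and D at 24 h and A, B and C at 72 h (up to 0.118). Without replicate B at 48 h the 48 h mean of NOP6 was 0.39 (adjusted p 0.0678). NOP8, a large subunit factor, was 0.18, 0.14 and 0.13 and did not pass, and its 48 h mean was -0.05 without replicate B.

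RRP14, which serves in maturation of the precursors of both subunits, and RRP15 were higher at 48 h. RRP14 was 0.39, 0.44, 1.14, 0.54 and 1.25 at 48 h (mean 0.75 ± 0.41, SD, n = 5, limma adjusted p = 0.000661) and -0.01, -0.01, -0.52, -0.01 and 0.20 at 72 h, with no overlap. Its change of -0.82 passed (SE 0.22, adjusted p = 0.012), and its 24 h mean of 0.40 passed only without replicate C (0.54, adjusted p 0.0428). RRP15 was 0.52 ± 0.59 at 48 h (SD, n = 5, adjusted p = 0.0187), lost without replicate C, D or E (up to 0.11), with replicate B at -0.43 and a mean of 0.76 without B (adjusted p 0.000412). RRP8 (YDR083W), a methyltransferase of the large subunit rRNA, was named after its values were seen. Its means were -0.45, -0.44 and -0.44 (adjusted p = 0.00839, 0.0035 and 0.00672), and after removal of the ORF trend they were -0.20, -0.23 and -0.10 and none passed.

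The ratio differed between 48 and 72 h for 12 of the 50 genes, 5 higher and 7 lower at 72 h, beside 30.2% of all genes in limma, 13.9% higher and 16.3% lower. UTP8, UTP18, UTP4, RRP1 and RRP7 were the 5 that were higher, and NOP15, NOP53, NOP56, NOP58, RRP14, RRP40 and RRP46 the 7 that were lower. By name group, 3 UTP genes were higher and 0 lower, 0 NOP genes higher and 4 lower, and 2 RRP genes higher and 3 lower. At an unadjusted p under 0.05 in the same test, the UTP count was 4 higher and 0 lower and the NOP count 0 higher and 6 lower. For all genes the share at that looser cut is not given here. The count of 12 was 19, with 7 higher and 12 lower, without replicate B at 48 h, and 8 without replicate A at 72 h. From 24 to 48 h 1 gene differed (UTP20, lower), beside 0.991% of all genes (0.619% higher, 0.372% lower), and the count was 4 without replicate B at 48 h and 2 without replicate A at 48 h. From 24 to 72 h 2 genes were lower (UTP20, NOP6), beside 14.3% of all genes (9.16% lower, 5.17% higher). That count was 6 without replicate B at 48 h or E at 72 h, and 1 when any 1 of 5 slides was left out (24 h B and D, and 72 h A to C). The comparisons of time points share slides and are not independent.

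**Figure D5:**
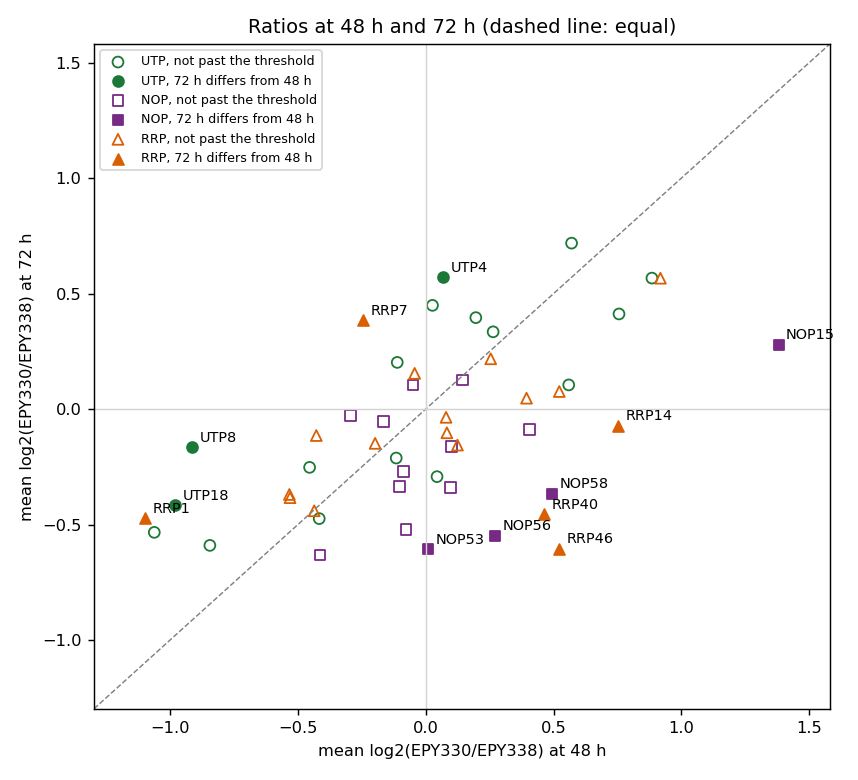
Mean log2(EPY330/EPY338) at 48 h (x axis) and 72 h (y axis) of the 50 tested genes. Filled symbols are the 12 genes whose ratio differed between these times in limma, and the dashed line marks equal ratios. The 3 filled UTP genes lie above the line and the 4 filled NOP genes below it.

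SAM, the test named by the original study, was rewritten here over every sign flip of the slides. At a false discovery rate of 0.2% it called fewer genes than limma. Of all genes it called 549, 132 and 373 at 24, 48 and 72 h. Even together these are fewer than the paper reports from SAM over the time points, so the counts below are not those of the paper. At 24 h the version used here called 3 of 51 (UTP20 and UTP11 higher, RRP1 lower), beside 9.37% of all genes (7.46% higher, 1.91% lower). At 48 h it called NOP15 alone, which was higher, beside 2.31% (2.25% higher, 0.0524% lower). At 72 h it called 0 of 51, beside 6.27% of all genes (4.63% higher, 1.65% lower). Limma called 19 of 50 there, beside 33.8% of all genes. An unadjusted p under 0.05 was found for 24 of 50, and the share of all genes at that cut is not given here. Imputing the missing values raised these counts to 9, 10 and 11 for the time points, so a gene without a SAM call is not shown to be unchanged. The share of all genes called after imputation is not given here. Leaving out replicate A or C at 24 h gave 6 or 8 calls, leaving out C, D or E at 48 h gave 0, and leaving out E at 72 h gave 1.

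UTP11 (YKL099C), a small subunit processome protein, had 7 values. At 24 h its slides gave 0.56, 1.47, 1.24 and 0.78, a mean of 1.01 ± 0.42 (SD, n = 4). At 72 h 3 slides gave 0.31, 3.93 and 0.77, so that the mean of 1.67 rested on replicate C. NOP19, a small subunit factor, had 0.80, -0.41, 0.17 and 0.48 on 4 slides at 48 h. A mean past 2-fold was reached at 24 h by UTP20 and UTP11 (2 of 51, beside 6.93% of all genes, 5.08% higher and 1.84% lower), at 48 h by NOP15, RRP1 and UTP9 (3 of 51, beside 9.25%, 5.75% higher and 3.5% lower) and at 72 h by UTP11 (1 of 51, beside 2.56%, 1.87% higher and 0.69% lower).

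Other genes of the pathway are given beside these factors, and their counts beside the 41.9%, 50.8% and 33.8% of all genes that passed at 24, 48 and 72 h. Of 32 other small subunit processome genes, 6 were higher and 7 lower in limma at 24 h, 5 and 7 at 48 h, and 4 and 6 at 72 h. FAL1, an RNA helicase of this list, was lower at 24, 48 and 72 h (-0.99, -1.01 and -0.60). ROK1 was also lower (-0.60, -0.92 and -0.45), and BUD21 higher (0.68, 0.78 and 0.48). Of 48 other large subunit factors, 3 were higher and 16 lower at 24 h, 6 and 11 at 48 h, and 4 and 14 at 72 h. RIX1 and IPI1, which form a complex in large subunit maturation, were -1.07 and -0.99 at 24 h. Among 6 other exosome genes, 3 were higher at 24 h and 4 at 48 h, none was lower, and 0 passed at 72 h in this limma fit. CSL4, the remaining cap subunit, was 1.42 at 24 h, beside RRP40 at 0.15 and RRP4 at -0.35.

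Among the 8 other genes of small nucleolar ribonucleoproteins, 2 were higher and 1 lower in limma at 24 h, 3 and 1 at 48 h, and 0 and 0 at 72 h. GAR1, an H/ACA particle protein, was 0.94, 1.54 and 0.03 at 24, 48 and 72 h. SHQ1 was -0.83, -0.94 and -0.22 at these times, and SNU13 0.69, 0.80 and -0.03. Of 9 late small subunit factors, 2 were higher and 1 lower at 24 h, 0 and 1 at 48 h, and 0 and 2 at 72 h. Of 14 genes of RNA polymerase I and its factors, 0 were higher and 4 lower at 24 h, 0 and 7 at 48 h, and 2 and 3 at 72 h. UAF30 of this list was -0.62, -0.85 and -0.45, and RRN3 -0.47, -0.72 and -0.23. RRN7, a factor of the initiation complex of RNA polymerase I, was -0.68, -0.81 and 0.14. Of 11 regulators of ribosome synthesis genes, 5 were higher and 4 lower at 24 h, 6 and 3 at 48 h, and 2 and 2 at 72 h. REB1, a general DNA-binding factor, was 0.92, 0.97 and 0.92, TOR1, a growth-controlling kinase, 0.97, 0.85 and 0.74, and STB3, a repressor that binds the promoters of processing factor genes, -0.61, -0.61 and -0.64.

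The cytosolic ribosomal protein genes, whose products these factors assemble, are given for comparison. Of 125 such genes, 68 were higher and 5 lower in limma at 24 h, 85 and 1 at 48 h, and 13 and 34 at 72 h (58.4%, 68.8% and 37.6% in all), with medians of 0.55, 0.58 and -0.19. The medians of the UTP, NOP and RRP genes together were -0.13, 0.04 and -0.11. The difference between these lists was not tested, and near-identical gene copies can cross-hybridize on cDNA spots.

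Ratios of the table followed the sorted ORF names to some degree. The ratio of a UTP, NOP or RRP gene and the median of ORFs at set distances along that order had a Pearson's r of 0.23, 0.21 and 0.37 (24, 48 and 72 h) over 51 genes, which share slides and are not independent. RRP8 and RRP1, with 3 genes between them, were -0.45 and -0.95 at 24 h. RRP6 and UTP23, with 2 genes between them, were on opposite sides of 0 (-0.28 and 0.81). The part of this trend in the results was not tested further than by its removal.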

How the data were processed

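The deposited values were log2 ratios with EPY338 as numerator, 1 per ORF and slide, made by the authors on double-spotted cDNA slides: intensities were extracted with GenePix Pro, artifactual and weak spots removed and slides lowess-normalized in BRB-ArrayTools. No intensities were used, so signal over background was not assessed, and precision is limited by the number of slides. Here the sign was turned, and 5546 of 6040 ORFs were named through a RefSeq table of assembly R64. Genes with values on at least 3 slides entered one-class SAM per time point and, if so at every time point, limma 3.58.1 (R 4.3.3, lmFit and eBayes, two-sided, Benjamini-Hochberg, adjusted p under 0.05). SAM was written in numpy 2.4.6 and pandas 2.3.3 under Python 3.11.15, and plots were drawn with matplotlib 3.10.9. The scripts were tested on simulated data.

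Values are given for the 3 highest and 3 lowest genes of each name group by mean over time points (among those with every value), the fixed complexes, and genes called where 10 or fewer were. UTP23, RRP8 and NOP19 were added after their values were seen. Of each other list at most 3 genes, ranked by size, are named. The genes and lists were chosen with earlier results of these data known. Alternatives were imputation from 10 nearest genes, complete genes, median centring, removal of a trend along the ORF order (each slide minus the median of ORFs 1 to 6, 44 to 50 and 91 to 97 positions off in either direction), medians of slides, an adjusted p of 0.002, an FDR of 1%, each time point or pair of time points alone, a replicate block and leaving out each slide. Sequences and promoter motifs were not analysed here.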

Additional observations from a re-analysis of the deposited data

Results flagged for a closer look

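Of 102 sets of slides of the named genes at a time point, 10 held 1 slide far from the others, beside a nominal chance share of about 1 in 20. The sets share slides and are not independent. Replicate B at 48 h was the far slide for NOP1 (0.66), NOP8 (0.94), RRP4 (1.05) and UTP20 (0.30). At 24 h it was replicate C for NOP1 (0.36) and replicate A for RRP42 (-0.34). At 72 h it was replicate A for NOP12 (-0.38), B for NOP53 (-0.04), C for UTP5 (0.07) and E for RRP15 (-0.28).

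The strain ratio of 14 named genes differed between time points in limma. From 48 to 72 h the change was 0.75 for UTP8, 0.63 for RRP7, 0.62 for RRP1, 0.56 for UTP18 and 0.50 for UTP4, and it was -1.13 for RRP46, -1.10 for NOP15, -0.92 for RRP40, -0.86 for NOP58, -0.82 for NOP56, -0.82 for RRP14 and -0.62 for NOP53. From 24 to 72 h it was -0.87 for UTP20 and -0.75 for NOP6, and from 24 to 48 h it was -1.02 for UTP20.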

How the results depend on the processing

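SAM counts at 24, 48 and 72 h were 9, 10 and 11 with missing values imputed, 9, 10 and 7 on genes with every value, 9, 2 and 1 with the ORF trend removed and 12, 9 and 10 at an FDR of 1%. Leaving out 1 slide gave 2 to 8, 0 to 1 and 0 to 1. At an adjusted p of at most 0.002 limma called 8, 12 and 3 genes at the time points, 2 in the same direction at all of them and 0 in each comparison of time points. Without 1 slide the limma counts were 16 to 23, 19 to 25 and 10 to 24, with 7 to 13 in the same direction throughout, and 1 to 4 (24 to 48 h), 8 to 19 (48 to 72 h) and 1 to 6 (24 to 72 h) for the comparisons. The 24 to 48 h count was 2 on genes with every value or with the trend removed, and the 24 to 72 h count 5 with the trend removed and 6 on the slides of these times alone. The median of all these genes was -0.077 at 24 h by the median of slides, and -0.061 at 48 h and -0.011 at 72 h with the trend removed. On genes with every value the UTP median was -0.11 at 48 h and -0.17 at 72 h. With the trend removed it was -0.13 at 24 h and -0.17 at 48 h, the NOP median -0.050 at 24 h and -0.11 at 72 h, and the RRP median -0.10 at 48 h. Without 1 slide the UTP median at 48 h was -0.084 to 0.080. The value of UTP15 at 48 h turned from 0.20 to -0.35 (adjusted p 0.0126) with the trend removed. The share of all genes called under each alternative is not given here, and the cause of these shifts was not tested.

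With the replicate letter as a replicate block, 1, 13 and 3 genes differed from 24 to 48, 48 to 72 and 24 to 72 h, and NOP6 lost its call from 24 to 72 h (adjusted p 0.0654). Slides of the same letter correlated in their deviations between -0.53 and 0.65, 6 of 13 pairs above 0.1, and 5 of 14 slides correlated best with their own letter, so the letters were not taken as pairs.

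Of the values of single genes that these alternatives tested, 2055 kept their direction and side of the threshold, 128 lost and 18 gained a call, 29 changed sign without a call and 1, that of UTP15, turned. The 102 medians of slides carry no test, and 4 of them changed sign. The number of slides limits the precision.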
